A study of Mus musculus with 2 samples.

Results

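The 6 mouse genes described here encode the factors that drive peptide chain elongation in the cytosol: Eef1a1, Eef1a2, Eef1b2, Eef1d, Eef1g and Eef2. They were chosen by gene name, and they are 6 of the 15631 annotated genes with at least 1 read in either library. The RNA came from gastrocnemius, a calf muscle made largely of fast fibres, of male B6CASTF1/J mice at 10 days of age, and total RNA was sequenced as long reads. This strain is an F1 hybrid, and the 2 libraries form the single untreated group, with 2 micrograms of RNA each and ERCC spike-in RNA added to both. The labels number the libraries as biological replicates, with their own biosamples and descriptions that number the males differently, but give both the same donor label. Separate animals are taken from the former, and if that is wrong, an SD over n = 2 may hold less than the spread between animals. The p-values set the difference in reads between these libraries against counting error alone. They measure neither the spread between animals nor a difference between conditions. There is 1 age, so a change in the balance of Eef1a1 and Eef1a2 over time was not measured.

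As background, eEF1A carries aminoacyl-tRNA to the ribosome as a complex with GTP, and eEF2 moves the ribosome to the next codon. The eEF1B complex, made of the products of Eef1b2, Eef1d and Eef1g, exchanges GDP for GTP on eEF1A. Most mammalian cells use Eef1a1, while mature skeletal muscle, heart and neurons are known for using Eef1a2, which takes over from Eef1a1 in muscle after birth. Mice without Eef1a2, the wasted strain, develop muscle wasting and lose motor neurons after weaning.

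Replicate 1 held 1145490 reads assigned to mouse transcripts and replicate 2 held 941841. Levels are counts scaled to 1000000 mouse reads (CPM), given as mean ± SD over the libraries (n = 2). Each read stands for 1 RNA molecule, so levels of genes were compared without division by length. Where a gene had 0 reads, the limit of 3 reads corresponds to 2.62 CPM in the first library and 3.19 CPM in the other. Both this limit and the intervals describe counting error only. The 5 muscle fibre markers (Acta1, Ckm, Myh4, Tnnt3 and Atp2a1) all had reads, with summed levels of 234632 and 225822 CPM. Of 5 neuron markers, Snap25, Syt1 and Rbfox3 had 0 reads in both libraries, and the 5 together had 3 reads in replicate 1 and 5 in replicate 2. The 5 Schwann cell markers summed to 1701 and 1300 CPM, the 5 fibroblast and matrix markers to 18733 and 11052 CPM, and the 5 red cell markers to 409 and 853 CPM. In whole tissue, fewer cells of a type and less RNA per cell cannot be told apart.

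The eEF1A paralogues are nearly the same protein written in different codons. Over 462 paired codons of Eef1a1-201 and Eef1a2-201, 426 residues were identical (92.2%), while 278 of 1386 bases differed. In 205 codons the bases differed and the residue did not. The third codon base was G or C in 52.1% of Eef1a1 codons and in 72.7% of Eef1a2 codons. The stretch of 40 codons with the most residue differences, codons 188 to 227, is shown because it is where the proteins are least alike. It holds 8 differing residues and 32 differing bases, and capitals mark the bases that differ.
Eef1a1 coding window: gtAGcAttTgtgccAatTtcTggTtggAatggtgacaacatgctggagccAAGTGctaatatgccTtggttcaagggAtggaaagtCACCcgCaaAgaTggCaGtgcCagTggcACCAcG
Eef1a2 coding window: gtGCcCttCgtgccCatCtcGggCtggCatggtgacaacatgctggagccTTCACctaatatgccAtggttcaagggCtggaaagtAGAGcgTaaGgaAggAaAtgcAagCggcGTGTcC

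The promoters of the pair are shown because the first exons read in this muscle are described against them. Each is the RefSeq window of 250 bases before to 50 after the annotated start on GRCm38.p6, on the minus strand. Windows were found for 4 of the 6 genes (not Eef1d or Eef1g). Capitals mark matches, on either strand, to 5 motifs: the core promoter elements TATATAA and also TATAAA, the box GGGCGG for Sp1-type factors, the E-box CACCTG and the further E-box CAGCTG. No matches overlapped in these windows.
Eef1a1 promoter, chr9:78481675-78481974: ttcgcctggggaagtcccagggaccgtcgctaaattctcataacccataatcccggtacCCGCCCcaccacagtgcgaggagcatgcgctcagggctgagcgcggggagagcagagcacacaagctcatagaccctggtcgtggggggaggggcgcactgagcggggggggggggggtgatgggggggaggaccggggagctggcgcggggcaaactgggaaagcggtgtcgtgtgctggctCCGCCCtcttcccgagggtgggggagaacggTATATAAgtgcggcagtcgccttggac
Eef1a2 promoter, chr2:181156966-181157265: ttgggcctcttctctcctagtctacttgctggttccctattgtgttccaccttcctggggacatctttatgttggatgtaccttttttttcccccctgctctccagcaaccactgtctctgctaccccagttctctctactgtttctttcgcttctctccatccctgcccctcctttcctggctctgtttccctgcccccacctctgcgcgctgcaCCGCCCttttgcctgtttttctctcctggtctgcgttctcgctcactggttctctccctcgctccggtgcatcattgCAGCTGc
The Eef1a1 window held 1 match to TATATAA that started 24 bases into the annotated transcript, and 3.24% of 32851 mouse promoter windows hold that motif. It also held 2 matches to GGGCGG, at -191 and -8, which 35.7% of windows hold. The Eef1a2 window held 1 match to GGGCGG, at -34, and 1 to the E-box CAGCTG, at 44 bases into the transcript, which 16.3% of windows hold. Neither window held the element TATAAA (13.6% of windows) or the E-box CACCTG (20.2%). The G and C content was 66.7% for Eef1a1 and 55.0% for Eef1a2.

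Eef1a1, the widely used paralogue on chromosome 9 (78478449 to 78489151, minus strand, mm10), had 383 reads in replicate 1 and 204 in replicate 2. Its level was 334 CPM (95% Poisson interval 302 to 370) and 217 CPM (188 to 248), a mean of 275 ± 83.3 CPM that ranked 382 among all genes. Eef1a2, the muscle and neuron paralogue on chromosome 2 (181147653 to 181157014, minus strand), had 237 and 172 reads. Its level was 207 CPM (181 to 235) and 183 CPM (156 to 212), a mean of 195 ± 17.2 CPM at rank 581. Eef1a1 was thus the higher of the pair in both libraries, and the Eef1a2 levels were the closer together of the 2 genes.

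Eef1a2 made up 38.2% of the 620 reads of the pair in replicate 1 (95% Clopper-Pearson interval 34.4 to 42.2). In replicate 2 it made up 45.7% of 376 reads (40.6 to 50.9). The mean share was 42.0 ± 5.32%, and the ratio of Eef1a2 to Eef1a1 was 0.619 and 0.843. The interval of replicate 1 lay below an even balance, while that of replicate 2 included it. The share differed between the libraries by 7.52 points (two-sided Fisher's exact test, p = 0.0202), with the lower Eef1a2 share in the library with more Eef1a1. At 10 days, then, Eef1a2 RNA was present beside a larger number of Eef1a1 reads in both libraries.

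**Figure D1:**
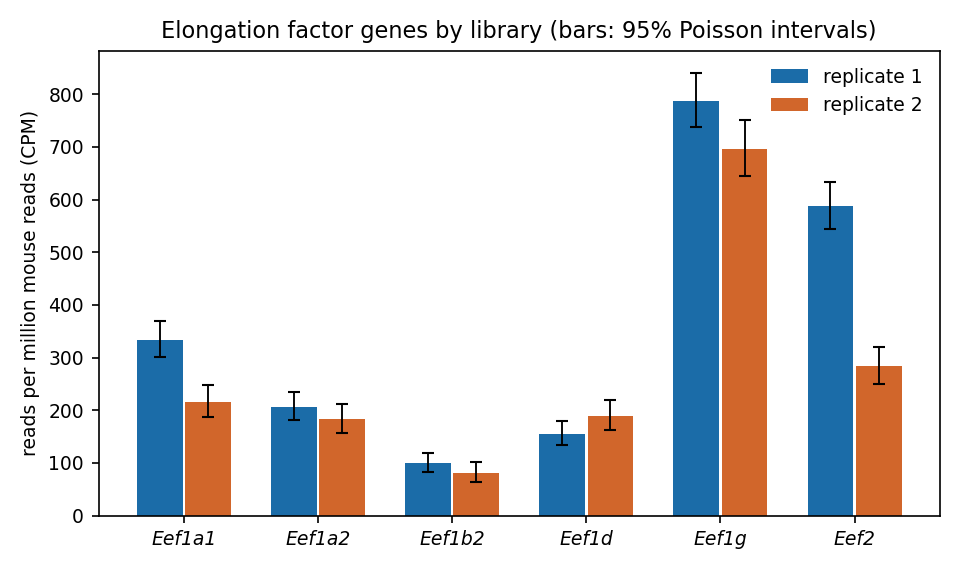
Level of each elongation factor gene in each library, in reads per 1000000 mouse reads, with 95% Poisson intervals as error bars. Eef1g was highest in both libraries, Eef1a1 stood above Eef1a2 in both, and the widest gap between libraries was that of Eef2, at 588 and 283 CPM.

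Reads of a gene can be placed at its pseudogene copies. Annotated loci that align to the main transcript over at least 200 nt at 90% identity or more numbered 18 for Eef1a1 and 0 for Eef1a2. Only 1 of the 18, the processed pseudogene Gm6548 at 96.7% identity, had a read, and it had 1 in replicate 1 and 0 in replicate 2. With that read added to Eef1a1, the mean Eef1a2 share was 41.95%.

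Rpl3 and Rpl3l form another pair in the translation apparatus, a ribosomal protein used in most tissues and its striated-muscle form. Rpl3 had 367 and 345 reads, and Rpl3l had 531 and 413. Rpl3l made up 59.1% of the pair's 898 reads in replicate 1 (55.8 to 62.4) and 54.5% of 758 in replicate 2 (50.9 to 58.1), a mean of 56.8 ± 3.29%. The muscle form was thus above an even balance in both libraries for Rpl3l and in neither for Eef1a2. The Rpl3l share differed by 4.65 points in the other direction (two-sided Fisher's exact test, p = 0.0585), which is not past 0.05.

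**Figure D2:**
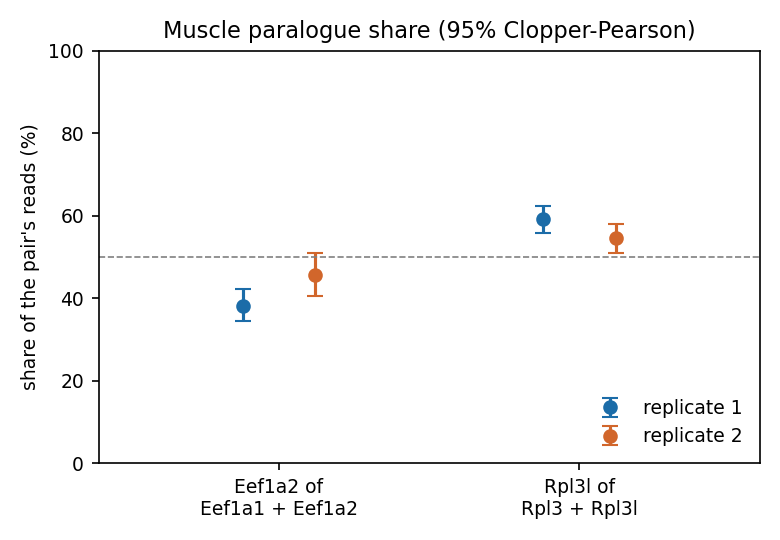
Share of the muscle paralogue in the reads of its pair, in percent, for each library, with 95% Clopper-Pearson intervals and a dashed line at an even balance. The Eef1a2 points, at 38.2 and 45.7, lie below the line, and the Rpl3l points, at 59.1 and 54.5, lie above it.

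The first exons of the pair were told apart by the first intron of each spliced read. Where reads started within a first exon was not measured. Of spliced Eef1a1 reads, 311 of 383 in replicate 1 (81.2%) and 152 of 204 in replicate 2 (74.5%) held the first intron of Eef1a1-201. The annotated first exon of that transcript starts in the promoter window shown. The alternative annotated first exon farther upstream, with its last base at 78489074, had 1 read in replicate 1. Nearly all other Eef1a1 reads began inside the gene body: incomplete models, which hold only the 3′ part of an annotated intron chain, took 18.3% and 25.5% of reads. For Eef1a2, 182 of 235 spliced reads (77.4%) and 123 of 167 (73.7%) held the first intron of Eef1a2-201, the only annotated transcript.

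Eef1a2 also had an unannotated first exon, absent from GENCODE M21, at chr2:181155949-181156026 inside the annotated first intron. It was the first exon of 20 of 235 spliced reads in replicate 1 (8.51%) and 8 of 167 in replicate 2 (4.79%). A further unannotated first exon, at 181157668 to 181157889 and so upstream of the promoter window, had 3 and 4 reads. Both were seen in both libraries. The annotated start codon lies in the second exon of Eef1a2-201, and the reads of the unannotated transcript with the first of these exons (20 and 8) held every other intron of Eef1a2-201. Models with an unannotated splice site took 12.7% and 12.2% of all Eef1a2 reads, against 4.82% and 8.15% over all genes, and 0.783% and 0.490% for Eef1a1.

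The fixed rule for like genes took the closest in mean log2(CPM + 1) and in the log2 ratio of the libraries, among 1106 protein-coding genes with 100 or more reads in each. The 3 nearest to Eef1a1 were Ddb1, Rnf10 and Usp47, at distances of 0.028, 0.079 and 0.087. The 3 nearest to Eef1a2 were Trim54, a muscle ring-finger protein of the sarcomere, then Psmd1 and Macrod1, at 0.024, 0.040 and 0.044. With 2 libraries this likeness rests on 2 values per gene.

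The subunits of eEF1B were read very unequally. Eef1g, the scaffold subunit on chromosome 19 (8967041 to 8978479, plus strand), had 902 and 656 reads, or 787 CPM (737 to 841) and 697 CPM (644 to 752). Its mean of 742 ± 64.3 CPM was the highest of the 6 genes and ranked 102 among all genes. Eef1d, an exchange subunit on chromosome 15 (75894205 to 75909556, minus strand), had 178 reads in each library, or 155 CPM (133 to 180) and 189 CPM (162 to 219), a mean of 172 ± 23.8 CPM. Eef1b2, the other exchange subunit, on chromosome 1 (63176825 to 63180486, plus strand), had 114 and 76 reads, or 99.5 CPM (82.1 to 120) and 80.7 CPM (63.6 to 101), a mean of 90.1 ± 13.3 CPM. The order of the 3 was the same in both libraries, and their Poisson intervals did not overlap within either.

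Eef1g made up 75.5% of the 1194 eEF1B reads in replicate 1 and 72.1% of 910 in replicate 2. Eef1d made up 14.9% (Wilson interval 13 to 17) and 19.6% (17.1 to 22.3), and Eef1b2 made up 9.55% and 8.35%. There were 7.91 and 8.63 Eef1g reads for each Eef1b2 read, and 5.07 and 3.69 for each Eef1d read. The Eef1d share rests on unannotated models. With annotated transcripts alone it fell to 7.55%, and that of Eef1g was 82.3%. Eef1g shares sequence with the processed pseudogene Gm4366 at 99.6% identity over 1342 nt, a locus given 6 and 8 reads. Naprt, which shares 277 nt with Eef1d at 100% identity, had 12 and 6 reads.

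Ordered by mean level, the 6 genes ran Eef1g, Eef2, Eef1a1, Eef1a2, Eef1d and Eef1b2. Eef1a2 and Eef1d changed places between the libraries, and their means differed by less than the SD of Eef1d. In replicate 2 the Poisson intervals of Eef1a1, Eef1a2 and Eef1d all overlapped, while that of Eef2 lay above them. In replicate 1 the intervals of Eef1a1 and Eef1a2 did not overlap. Eef1g reads outnumbered Eef1a1 reads by 2.36 and 3.22 to 1. The eEF1B genes summed to 1042 and 966 CPM, above the 541 and 399 CPM of both eEF1A genes together. All 6 genes summed to 2171 and 1649 CPM.

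Eef1d was the member with variable internal exons. Of 46 internal exons measured over the 6 genes, 2 were included in 5% to 95% of the reads that spanned them, and both were in Eef1d. They are shown, with 15 bases of the neighbouring exons of Eef1d-213 on each side in lower case and the exon in capitals, since their use sets the Eef1d transcript made in this muscle.
Eef1d 57-nt exon, chr15:75897226-75897282, minus strand: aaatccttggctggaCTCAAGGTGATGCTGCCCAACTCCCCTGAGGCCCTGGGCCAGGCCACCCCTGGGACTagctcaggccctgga
Eef1d 72-nt exon, chr15:75900691-75900762, minus strand: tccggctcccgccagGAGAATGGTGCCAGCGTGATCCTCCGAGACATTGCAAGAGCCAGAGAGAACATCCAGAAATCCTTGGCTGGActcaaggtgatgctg
Both are coding, begin at the first base of a codon and hold whole codons, 19 and 24 of them, with 0 stop codons in frame. Either can therefore be kept or left out without a shift of the reading frame.

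The 57-nt exon was kept in 106 of 173 spanning reads in replicate 1 (61.3%, Wilson interval 53.8 to 68.2) and in 106 of 178 in replicate 2 (59.6%, 52.2 to 66.5). The 72-nt exon was kept in 147 of 172 (85.5%, 79.4 to 89.96) and 156 of 175 (89.1%, 83.7 to 92.9). For each exon the intervals of the libraries overlapped. Reads that spanned both exons kept both in 54.7% and 56.0% of cases, and kept the 72-nt exon alone in 30.8% and 33.1%. They kept the 57-nt exon alone in 6.4% and 4.00%, and neither in 8.14% and 6.86%. Among reads with the 72-nt exon, 94 of 147 (63.9%) and 98 of 156 (62.8%) also had the 57-nt exon. Among reads without it, 11 of 25 (44.0%, 26.7 to 62.9) and 7 of 19 (36.8%, 19.1 to 59.0) did. The share was thus lower without the 72-nt exon in both libraries. In both libraries that interval overlapped the interval of reads with the 72-nt exon (55.9 to 71.3 and 55.0 to 70.0). Overlap does not show that the exons are used independently, and a link between them was not tested.

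**Figure D3:**
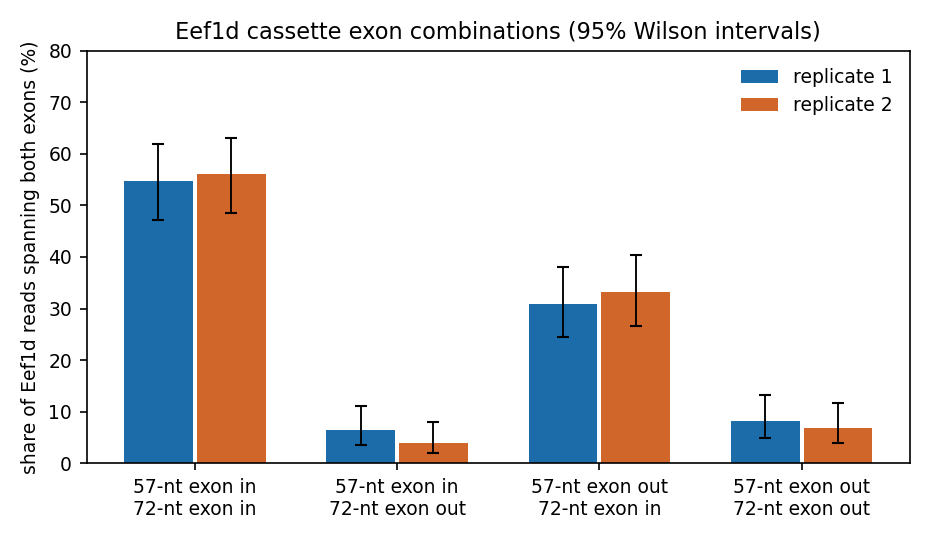
Share of Eef1d reads spanning both cassette exons that hold each combination of the 57-nt and 72-nt exons, in percent, for each library with 95% Wilson intervals. Reads with both exons lead at 54.7 and 56.0, followed by reads with the 72-nt exon alone at 30.8 and 33.1.

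The leading Eef1d transcript was not an annotated one. A 9-exon intron chain with both cassette exons held 81 of 178 reads in replicate 1 (45.5%, 38.4 to 52.8) and 92 of 178 in replicate 2 (51.7%, 44.4 to 58.9). Each of its splice sites is annotated. Eef1d-213 holds the same cassette exons in GENCODE M21 but ends at 75896281, short of the last exons. Eef1d-218, with the 72-nt exon alone, held 25.8% and 29.2%. Eef1d-205, with neither, held 6.74% and 6.18%, and an unannotated 8-exon chain with the 57-nt exon alone held 6.18% and 3.93%. New combinations of annotated splice sites thus made up 61.2% and 61.8% of Eef1d reads, against 12.3% and 6.0% over all genes. Known models made up 34.8% and 35.4%.

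The long form of Eef1d, known from brain and testis as a nuclear protein that acts on heat shock genes, needs a 1130-nt exon at 75902679 to 75903808 (Eef1d-204). It was in 2 of 171 spanning reads in replicate 1 (1.17%) and in 0 of 173 in replicate 2 (Wilson interval up to 2.17%). The splice junction on its 3′ side, which Eef1d-206 also has, was in 3 of 177 spliced reads in replicate 1 and 2 of 178 in replicate 2, since a further 1 and 2 reads began inside the exon. The 3′ part of the exon was thus read in both libraries, and the exon with introns on both sides in replicate 1 alone. That junction is also an annotated first intron, so a read that began inside the exon need not come from the long form. With so few molecules, the share of the long form was not measured beyond counting error. The first intron of Eef1d ended at 2 acceptor sites 3 bases apart. The intron with its end at 75901253 was in 13 of 177 spliced reads (7.34%) and 8 of 178 (4.49%), and that with its end at 75901256, from the same first exon, in 151 (85.3%) and 163 (91.6%).

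The other subunits each had 1 leading transcript and 0 variable internal exons. Eef1g-201, with 10 exons, held 89.0% and 89.8% of Eef1g reads, and Eef1b2-204, with 6 exons, held 92.1% and 90.8% of Eef1b2 reads. For the eEF1A pair, Eef1a1-201 held 80.7% and 74.0%, and Eef1a2-201 held 75.9% and 70.3%.

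Eef2, the translocation factor on chromosome 10 (81176631 to 81182498, plus strand), was the gene that differed most between the libraries. It had 673 reads in replicate 1 and 267 in replicate 2, or 588 CPM (544 to 634) and 283 CPM (250.5 to 320), a mean of 436 ± 215 CPM at rank 213. The level was 2.07-fold higher in replicate 1, or 1.05 on the log2 scale (exact binomial test, Benjamini-Hochberg adjusted p = 2.2e-23). It was the 1 of the 6 genes to pass both an adjusted p of 0.05 and a 2-fold limit. Of 7516 genes tested, 207 were called (2.75%), and 144 of them were higher in replicate 1 (1.92%).

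Eef1a1 was also higher in replicate 1, by 0.63 on the log2 scale (exact binomial test, adjusted p = 1.75e-05), without reaching 2-fold. The remaining 4 genes did not pass. Their log2 ratios, replicate 1 over replicate 2, were 0.18 for Eef1a2 (adjusted p = 0.547), 0.30 for Eef1b2 (0.483), -0.28 for Eef1d (0.30) and 0.18 for Eef1g (0.126), by the same exact test. Eef1g passed the adjusted p, and not the 2-fold limit, with annotated transcripts alone (log2 ratio 0.25, adjusted p = 0.0237). The median over the 6 genes was 0.24 and that over all tested genes 0.01. The sums of fibroblast and matrix, Schwann cell and muscle fibre markers (values above) were also higher in replicate 1. So were those of endothelial (328 and 240 CPM), satellite cell (76.8 and 45.7 CPM) and immune markers (93.4 and 86.0 CPM). Red cell and neuron sums were higher in replicate 2, the latter on 3 and 5 reads. Col1a1 (7947 and 4216 CPM) and Col3a1 (10116 and 6082 CPM) made up most of the fibroblast and matrix sum, while Dcn (512 and 611 CPM) and Lum (123 and 125 CPM) were not higher in replicate 1. Among endothelial markers, Cdh5 (31.4 and 31.9 CPM) and Tek (21.8 and 23.4 CPM) were not higher in replicate 1. Nor were the immune markers Cd68 (4.36 and 6.37 CPM), C1qa (23.6 and 24.4 CPM) and Lyz2 (31.4 and 35.0 CPM). Csf1r (33.2 and 20.2 CPM) was higher in replicate 1, and Ptprc had 1 and 0 reads. Cdh15, with 85 and 39 reads, made up most of the satellite cell sum, while Pax7 had 2 and 0 reads and Myf5 1 and 4. Of the muscle fibre markers, Myh4 (23388 and 8871 CPM) and Atp2a1 were higher in replicate 1, and Acta1, Ckm and Tnnt3 in replicate 2. The part of these cell types in the Eef1a1 and Eef2 differences was not tested. Replicate 1 is labelled with pipeline document 3.1 and replicate 2 with 3.0, so the document and the library cannot be told apart.

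**Figure D4:**
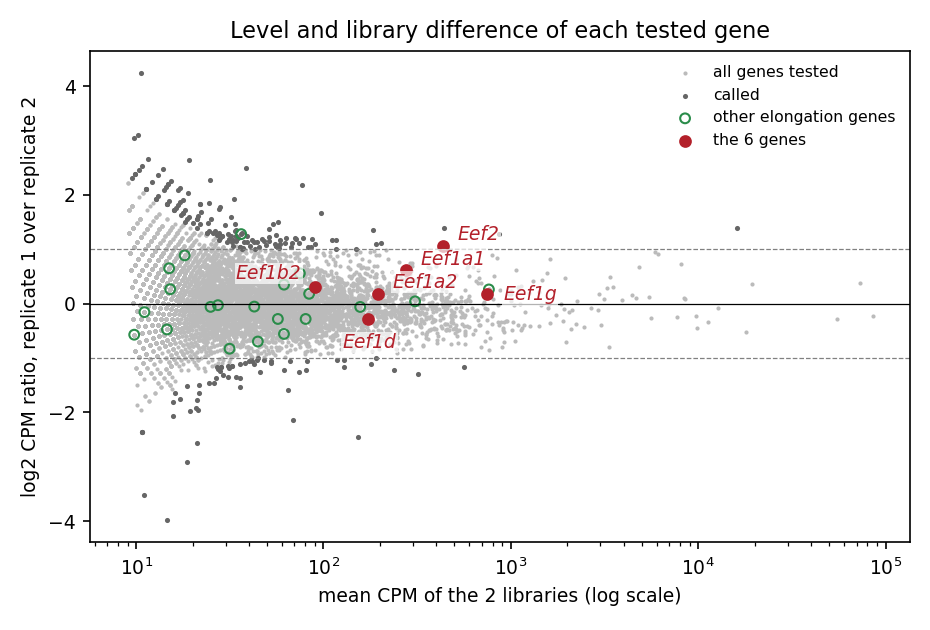
Mean level of each tested gene over the libraries (CPM, log scale) against its log2 ratio of replicate 1 over replicate 2, for the 7515 tested genes with reads in both, with dashed lines at 2-fold. Of the 6 genes, drawn as filled red points, only Eef2 lies beyond a dashed line, at 1.05, and of the other elongation genes, drawn as open green circles, only Eef2k does, at 1.28.

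Eef2 reads also differed in how far they reached. Eef2-201, with 14 exons over 3089 nt, held 444 of 673 reads in replicate 1 (66.0%, 62.3 to 69.5) and 139 of 267 in replicate 2 (52.1%, 46.1 to 58.0). This was the 1 share of 107 member transcripts called different (Fisher's exact test, adjusted p = 0.0349), where 105 of 70901 transcripts were called in all (0.148%). Most other Eef2 reads were incomplete at the 5′ end: incomplete models took 30.8% and 44.6% of Eef2 reads, against 8.82% and 7.63% over all genes. The incomplete share was thus higher in replicate 2 for Eef2 and lower in replicate 2 over all genes.

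Counted from the 3′ end, the last intron of Eef2 was held by 97.5% and 97.8% of its reads, the seventh by 87.8% and 85.8%, and the one next to the first exon by 66.7% and 52.4%. On reads with the last intron alone, Eef2 stood at 573 and 277 CPM, a ratio of 2.07. On reads that reached the first intron it stood at 392 and 149 CPM (449 and 140 reads), a ratio of 2.64. Reads with the last intron were 97.5% and 97.8% of all Eef2 reads, so their ratio could hardly differ from that over all reads. The start codon of Eef2 sits at the end of its first exon, so a read without the first intron lacks it. At their farthest introns Eef1a1 stood at 81.2% and 74.5% (its seventh) and Eef1g at 89.0% and 89.9% (its ninth). At the seventh intron Eef2, at 87.8% and 85.8%, thus stood above Eef1a1, and its lower values came farther from the 3′ end. What sets the drop was not tested.

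**Figure D5:**
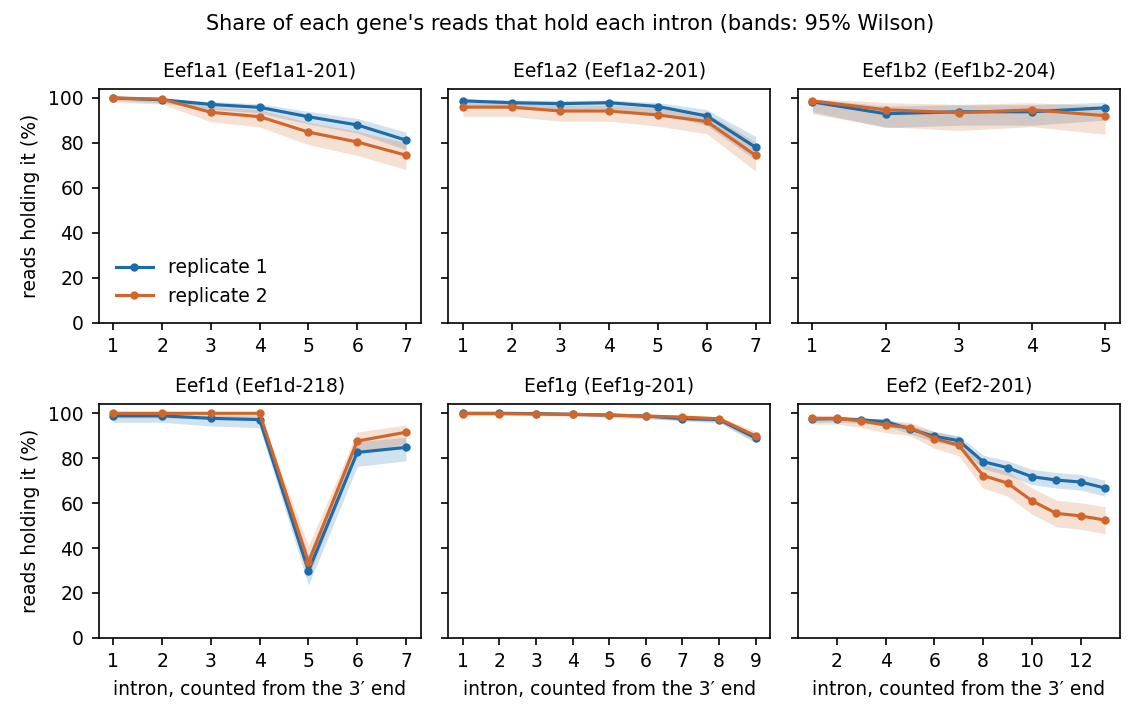
Share of each gene's reads that hold each intron of its main annotated transcript, in percent, by the intron's place from the 3′ end, for each library with 95% Wilson bands. Eef2 falls to 66.7 and 52.4 at its farthest intron, Eef1g only to 89.0 and 89.9, and the dip in Eef1d at the fifth intron is the intron that skips the 57-nt exon.

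Library differences depended on transcript length. Length was that of the transcript models, averaged over the reads of each gene. The median log2 ratio of replicate 1 over replicate 2 rose from -0.34 in the decile of genes with the shortest models to 0.37 in the decile with the longest. Deciles were formed over all tested genes, while the medians left out genes with fewer reads, by a higher minimum than that of the test. Eef2 lay in a decile with a median of 0.01, and Eef1a1, Eef1b2, Eef1d and Eef1g in one with -0.13. Measured against the median of its own decile, a check added after the data were seen, the Eef2 difference was 1.04 and that of Eef1a1 0.76. That of Eef1g was 0.31 and passed the adjusted p (0.0013, exact binomial test) without reaching 2-fold, which it did not pass in the test over all lengths.

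The wider machinery around these factors was described with a list of 31 genes, of which 29 had reads (Eef1akmt3 and Gspt2 had 0, within the limit above) and 21 had enough reads to test. In this list 1 gene was called, higher in replicate 1, against 2.75% of all tested genes. It was Eef2k, the kinase that inactivates eEF2 by phosphorylation, with 59 and 20 reads, or 51.5 and 21.2 CPM (log2 ratio 1.28, exact binomial test, adjusted p = 0.0074). Eef2 and its kinase were thus both higher in the same library. Eef2k lay in a length decile with a median of 0.23, and measured against that median its log2 ratio was 1.05. The median log2 ratio over the 21 genes was -0.06.

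Eif5a, the hypusine-bearing factor that helps the ribosome through difficult peptide bonds, was the most abundant of the list at 763 ± 97.3 CPM, with 953 and 654 reads. That is close to Eef1g. Its log2 ratio of 0.26 passed the test (adjusted p = 0.0071, exact binomial test) and not the 2-fold limit. Of its modifying enzymes, Dhps had 27 and 12 reads and Dohh had 57 and 69. Tpt1, a small protein that binds eEF1A, stood at 308 ± 6.27 CPM. Hbs1l, a GTPase related to eEF1A that rescues stalled ribosomes, had 157 ± 4.72 CPM, while its partner Pelo had 9 and 11 reads.

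Vars, the valyl-tRNA synthetase that binds the eEF1B complex, had 102 and 57 reads, or 74.8 ± 20.2 CPM, which is near the level of Eef1b2. The release factors Etf1 and Gspt1 had 61.6 ± 10.5 and 57.1 ± 7.88 CPM. Of the mitochondrial elongation factors, Tufm, the counterpart of eEF1A, had 80.3 ± 11.1 CPM, Gfm1, the counterpart of eEF2, had 83.8 ± 7.41 CPM, and Tsfm, which recycles Tufm, had 44.6 ± 14.97 CPM. The eEF1A lysine methyltransferases Mettl13, Eef1akmt1 and Eef1akmt2 had from 11 to 21 reads in each library, and Eef2kmt, which methylates eEF2, had 19 and 13. Among the diphthamide genes, whose products build the modified histidine of eEF2 that diphtheria toxin attacks, only Dph3 had enough reads to test, with 48 and 41 reads.

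For scale, the 81 cytosolic ribosomal protein genes had a median of 122 CPM (range 5.46 to 997). They summed to 12538 and 13128 CPM, with 0 of 79 tested genes called and 9 past the adjusted p of 0.05 at any fold, and 35 of the 79 higher in replicate 1. Their median log2 ratio was -0.03. Eef1g stood above the ribosomal median, Eef1a1 and Eef1a2 above it as well, and Eef1b2 below it.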

How the data were processed

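The authors deposited counts of long reads per TALON transcript model for each library, listing only models with reads, with no normalization. Per the deposited file descriptions, reads were aligned to mm10 and models built against GENCODE M21. Versions of the aligner and tools were not given in the sources used here.

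Counts were summed by annotated gene identifier. CPM used mouse reads, leaving out models on spike-in contigs. Genes totalling at least 20 reads took an exact two-sided conditional binomial test and transcripts of genes with 20 or more reads in each took Fisher's exact test, with Benjamini-Hochberg adjustment over all. Calls needed an adjusted p under 0.05 and 2-fold, or 10 points for shares. Unannotated models were matched by intron chain. Exon inclusion used reads with introns on both sides and 20 or more spanning reads per library. Coding sequences came from GENCODE M21 and promoters from RefSeq. Copies were found with minimap2 2.31-r1302. Tests ran in Python 3.11.15 with scipy 1.17.1 and were tested on simulated data. Scaling alternatives used edgeR 4.0.16 and DESeq2 1.42.0. The named genes followed a fixed rule: the 6 genes, the elongation list, Rpl3 and Rpl3l, the nearest genes, transcripts at 5% or more, variable exons and copies. Members and lists were chosen with earlier results of these data known.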

Additional observations from a re-analysis of the deposited data

How the results depend on the processing

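No paired analysis was possible because both libraries form 1 group. The mean Eef1a2 share ran from 40.6% to 44.3% over 5 sets of models or loci, and its library difference kept its direction with Fisher's exact p from 0.0201 to 0.0442. Leaving out a replicate gave shares of 38.2% and 45.7%. Eef2 stayed called, at log2 ratios of 1.04 to 1.47, under the 9 alternatives run for it. Eef1g passed the adjusted p under 2 of its alternatives, with annotated transcripts alone (0.0237) and with a null share per length decile (0.0013), while the others gave 0.0639 to 0.247, and it was never 2-fold. The called genes went from 207 to 59 with a minimum of 100 reads (fewer genes tested), 685 with no fold limit and 127 with a null share per length decile, added after the data were seen. With annotated transcripts alone the eEF1B shares moved to 10.2% for Eef1b2, 7.55% for Eef1d and 82.3% for Eef1g, since 61.2% and 61.8% of Eef1d reads lie in new combinations of annotated sites. Inclusion of the 57-nt and 72-nt exons of Eef1d (60.4% and 87.3%) moved by less than 1 SD in each setting tried. With n = 2, leaving out a library always moves a mean by less than 1 SD, so that setting could not have shown a move. For levels, transcript shares, first introns and log2 ratios of single genes, 154 values under an alternative stayed within 1 SD or on the same side of the threshold and 23 moved, all in settings that drop whole classes of models. The 154 include the values with a library left out, which could not move. TMM and DESeq2 scaling shifted log2 ratios by -0.01 each. In replicate 2, transcript shares rest on 76 reads for Eef1b2, 172 for Eef1a2 and 178 for Eef1d, and their intervals are wide.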
